A study of Mus musculus with 20 samples.

Results

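Evl, Acsf2, Jakmip1, Ggt5, Qsox2, Il31ra, Myl4 and Pgam2 are 8 of the 23284 genes in a count table of mouse thymocytes, and were picked by symbol as genes that respond to deletion of Zmiz1 in 2 mouse models. All 8 passed the filter on low counts in both models. The values that picked them are the differences between deleted and control cells, so those differences are given here as a description. Adjusted p-values of those contrasts are printed only to show where the choice fell and support nothing. Their levels after Notch1 blockade are not among those values and were tested. The genes were chosen with earlier results of these data known, so those tests may not be fully independent of the choice.

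All mice were C57BL/6, and RNA was taken from sorted DN3 thymocytes, early T cell progenitors that lack CD4 and CD8. In the later model, mice with loxP-flanked Zmiz1 alleles and MxCre (DeltaMxCre, 3 mice) and control mice with MxCre alone (MxCre, 3 mice) each received 5 injections of 40 mcg pI-pC at intervals of 2 days, and cells were sorted 8 weeks afterwards. In the earlier model, mice with loxP-flanked Zmiz1 and Rosa26CreERT2 (DeltaTamCre, 4 mice) and mice with Rosa26CreERT2 alone (TamCre, 4 mice) received tamoxifen at 0.2 mg/g and were sorted 43 to 44 h later. Another pair of groups received 10 mg/kg of an antibody against the negative regulatory region of Notch1 (AntiNRR, 3 libraries) or an isotype antibody (IgG, 3 libraries) and was sorted at 24 h. The labels give no number of mice for the antibody groups, so a p-value there measures only the spread between libraries. The Mx1 promoter, which drives MxCre, responds to interferon, which pI-pC induces; CreERT2 expressed from Rosa26 is active in most cell types once tamoxifen is given. Neither recombinase is restricted to thymocytes, so Zmiz1 was not removed from DN3 cells alone.

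ZMIZ1 is a coactivator of the PIAS-like family that binds NOTCH1 and raises transcription of a subset of Notch target genes. Notch1 signalling commits progenitors to the T lineage and sustains them at the DN3 stage, where the T cell receptor beta chain is first tested. An antibody to the negative regulatory region holds the receptor in its inactive form, so that its intracellular domain is not released to the DNA-binding partner RBPJ.

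The 8 genes have unrelated textbook roles. Evl belongs to the Ena/VASP family, which lengthens actin filaments, and Jakmip1 encodes a coiled-coil protein that binds microtubules and Janus kinases. Acsf2 is a mitochondrial acyl-CoA synthetase, Ggt5 is a gamma-glutamyl transferase that converts leukotriene C4 to D4, and Qsox2 is a sulfhydryl oxidase that forms disulfide bonds. Il31ra is the specific chain of the interleukin-31 receptor, which pairs with the oncostatin M receptor Osmr. Myl4 is the essential myosin light chain of atrial and embryonic muscle, and Pgam2 is the muscle form of the glycolytic enzyme phosphoglycerate mutase.

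The genes lie on chromosomes 12 (Evl), 5 (Jakmip1), 10 (Ggt5), 2 (Qsox2), 13 (Il31ra) and 11, which carries Acsf2, Myl4 and Pgam2. On mm10 (GRCm38) Evl spans chr12:108554681-108688516 on the plus strand, Jakmip1 chr5:37025852-37150614 on the plus strand and Acsf2 chr11:94557102-94602139 on the minus strand. Qsox2 spans chr2:26209124-26237399 on the minus strand and Ggt5 chr10:75589327-75617200 on the plus strand. Il31ra spans chr13:112521931-112580732 on the minus strand, Myl4 chr11:104546017-104587215 on the plus strand and Pgam2 chr11:5801637-5803796 on the minus strand.

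The 250 bases before the annotated start sites of the 4 genes below are shown because these genes passed the threshold in both deletions and have an entry in the RefSeq promoter table (GRCm38.p6); each runs 5′ to 3′ on the gene's strand. Capitals mark TGGGAA, the core letters bound by RBPJ, and TGTGGT, the core letters bound by RUNX factors, searched on both strands (reverse complements TTCCCA and ACCACA); the 2 motifs did not overlap in these windows.
Evl start 1 (chr12:108554470-108554719, plus strand): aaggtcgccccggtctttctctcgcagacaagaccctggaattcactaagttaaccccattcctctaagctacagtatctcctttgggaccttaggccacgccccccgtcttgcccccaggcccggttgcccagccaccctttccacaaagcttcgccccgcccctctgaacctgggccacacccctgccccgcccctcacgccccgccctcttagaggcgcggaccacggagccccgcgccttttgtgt
Evl start 2 (chr12:108605516-108605765, plus strand): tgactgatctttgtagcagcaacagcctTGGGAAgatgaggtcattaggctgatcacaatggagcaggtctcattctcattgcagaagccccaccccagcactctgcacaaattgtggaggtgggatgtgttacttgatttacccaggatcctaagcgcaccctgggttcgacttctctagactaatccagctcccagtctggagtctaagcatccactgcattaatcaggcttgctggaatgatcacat
Acsf2 (chr11:94601787-94602036, minus strand): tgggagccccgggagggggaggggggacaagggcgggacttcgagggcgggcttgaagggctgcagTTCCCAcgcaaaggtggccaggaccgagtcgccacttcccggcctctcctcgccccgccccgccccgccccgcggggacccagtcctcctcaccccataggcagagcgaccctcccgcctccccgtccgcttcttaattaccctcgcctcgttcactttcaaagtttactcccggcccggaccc
Jakmip1 start 1 (chr5:37050607-37050856, plus strand): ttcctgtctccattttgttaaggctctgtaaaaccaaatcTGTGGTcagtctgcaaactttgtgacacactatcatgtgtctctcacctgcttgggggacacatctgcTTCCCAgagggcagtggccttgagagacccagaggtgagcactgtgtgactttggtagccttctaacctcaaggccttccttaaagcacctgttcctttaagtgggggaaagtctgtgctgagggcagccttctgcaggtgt
Jakmip1 start 2 (chr5:37084986-37085235, plus strand): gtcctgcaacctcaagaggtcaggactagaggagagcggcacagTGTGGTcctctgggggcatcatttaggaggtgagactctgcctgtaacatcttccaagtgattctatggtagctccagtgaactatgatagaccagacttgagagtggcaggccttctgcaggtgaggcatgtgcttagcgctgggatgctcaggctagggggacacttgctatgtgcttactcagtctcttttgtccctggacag
Qsox2 (chr2:26237400-26237649, minus strand): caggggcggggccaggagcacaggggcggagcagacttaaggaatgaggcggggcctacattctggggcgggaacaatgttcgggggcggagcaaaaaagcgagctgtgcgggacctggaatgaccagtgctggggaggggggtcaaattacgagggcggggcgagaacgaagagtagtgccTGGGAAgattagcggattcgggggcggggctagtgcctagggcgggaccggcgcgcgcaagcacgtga

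TGGGAA occurred in 4 of these 6 windows (the second start of Evl, Acsf2, the first start of Jakmip1 and Qsox2). That is 4 of the 9 windows of all members with an entry, against 21.6% of the 32851 promoter windows of the same length. TGTGGT occurred in 2 of the 6 and 2 of the 9, both starts of Jakmip1, against 14.05% of all windows. The 6 were picked by the threshold, and Evl and Jakmip1 each gave 2 of them, so nothing is read from these shares. Neither run of letters was found in the windows of Il31ra, Myl4 and Pgam2, and 5 of the 9 windows of the 7 genes with an entry held the E box CANNTG, against 66.2% of all windows. A match says only that the letters are there, and which of the start sites these cells used was not analysed here.

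The 12 MxCre, DeltaMxCre, IgG and AntiNRR libraries were made with the SMARTer kit from 50 ng of RNA and held 11695668 to 19133149 counts. The 8 TamCre and DeltaTamCre libraries were made with the TruSeq kit from 100 ng and held 71548171 to 101425251 counts in TamCre and 52615332 to 72477238 in DeltaTamCre. Kit, depth, Cre and time all differ between the models and cannot be told apart, so levels in CPM (counts scaled to library size) are compared within a kit. The labelled sort reads CD44-positive and CD25-negative, the reverse of the textbook DN3 phenotype; Il2ra, which encodes CD25, ran from 543 to 5886 CPM and Cd44 from 0.551 to 7.23 CPM over all libraries. In bulk RNA, fewer cells that express a gene and less RNA per cell cannot be told apart.

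Zmiz1 itself checked the labels. Its 3 MxCre libraries read 298, 360 and 334 CPM and its DeltaMxCre libraries 121, 132 and 116 CPM, which is 36.7%, 40.0% and 35.1% of the control mean. In TamCre it read 324, 293, 272 and 282 CPM, and in DeltaTamCre 184, 220, 169 and 172 CPM, or 62.9%, 75.2%, 57.7% and 58.9% of the control mean. Neither deleted group overlapped its controls. None of the sources used here names the exons removed, so the remaining counts may include transcripts from deleted alleles and are not a measure of undeleted cells.

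Evl, Acsf2, Jakmip1 and Ggt5 were higher and Qsox2 was lower in deleted cells of both models. Evl, the actin regulator, read 10.8, 9.80 and 15.1 CPM in MxCre and 59.8, 45.4 and 58.6 CPM in DeltaMxCre. At 43 to 44 h it read 12.8, 12.6, 11.3 and 11.1 CPM in TamCre and 28.6, 24.0, 23.5 and 21.3 CPM in DeltaTamCre. Every deleted library lay above every control of its model, and the lowest DeltaMxCre library was about 3 times the highest control. The estimated log2 fold change was 2.20 ± 0.29 (SE, n = 3 per group; a 4.58-fold difference) at 8 weeks and 1.03 ± 0.11 (SE, n = 4 per group; 2.04-fold) at 43 to 44 h.

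**Figure D1:**
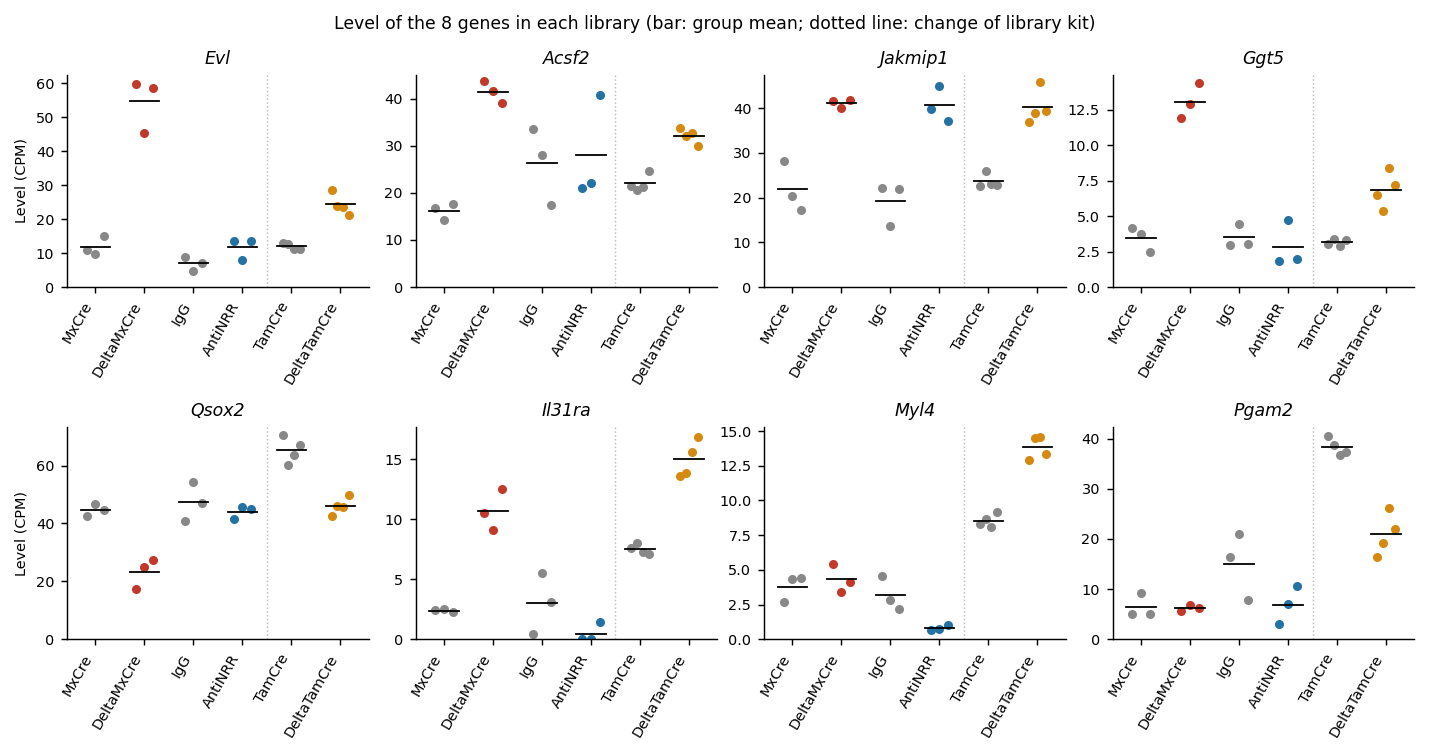
Level of each gene in every library, in CPM on a linear axis that starts at 0; points are libraries, bars are group means, and the dotted line separates the SMARTer groups on its left from the TruSeq groups on its right. All DeltaTamCre libraries lie outside the TamCre range for the 8 genes, and the DeltaMxCre libraries lie outside the MxCre range for all but Myl4 and Pgam2.

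Acsf2, the mitochondrial acyl-CoA synthetase, read 16.7, 14.2 and 17.7 CPM in MxCre and 43.6, 41.6 and 39.0 CPM in DeltaMxCre. In the earlier model it read 21.4, 20.6, 21.3 and 24.6 CPM in TamCre and 33.8, 32.1, 32.7 and 29.9 CPM in DeltaTamCre. The groups did not overlap in either model, and the log2 fold changes were 1.35 ± 0.27 at 8 weeks and 0.55 ± 0.08 at 43 to 44 h. A processed pseudogene on chromosome 3, Gm5540, matches 1848 bases of the Acsf2 transcript at 99.0% identity, and none of the sources used here says how reads that match both places were counted.

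Jakmip1, the microtubule-binding partner of Janus kinases, had nearly the same difference in both models. It read 28.3, 20.4 and 17.2 CPM in MxCre against 41.5, 40.1 and 41.9 CPM in DeltaMxCre, and 22.5, 26.0, 23.1 and 22.9 CPM in TamCre against 36.8, 38.9, 45.9 and 39.4 CPM in DeltaTamCre. The groups did not overlap in either model. The log2 fold changes were 0.91 ± 0.23 at 8 weeks and 0.77 ± 0.09 at 43 to 44 h. An annotated locus on the same strand, Gm1043, shares the 2496 bases of the Jakmip1 transcript compared, so the reads cannot be assigned to one of them by sequence.

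Ggt5, the leukotriene-converting transferase, was a gene of low level. It read 4.18, 3.75 and 2.48 CPM in MxCre and 11.95, 12.9 and 14.4 CPM in DeltaMxCre. In TamCre it read 3.07, 3.42, 2.90 and 3.32 CPM, and in DeltaTamCre 6.48, 5.33, 8.42 and 7.17 CPM. No deleted library overlapped its controls, and the log2 fold changes were 1.91 ± 0.49 at 8 weeks and 1.11 ± 0.16 at 43 to 44 h.

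Qsox2, the sulfhydryl oxidase, was the gene among the 8 that was lower in both models. It read 42.7, 46.8 and 44.8 CPM in MxCre and 17.3, 24.9 and 27.3 CPM in DeltaMxCre, and 70.7, 60.01, 63.8 and 66.9 CPM in TamCre against 42.5, 46.1, 45.7 and 49.9 CPM in DeltaTamCre. The log2 fold changes were −0.95 ± 0.19 at 8 weeks and −0.51 ± 0.07 at 43 to 44 h, with no overlap of groups. The transcript shares 647 bases with an annotated antisense RNA, Gm27196, and the sources used here do not say whether counting used strand.

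Il31ra, Myl4 and Pgam2 lay inside the threshold of 0.05 on the adjusted p at 43 to 44 h and outside it at 8 weeks in edgeR, which describes the choice of genes and tests nothing. Il31ra read 2.45, 2.50 and 2.26 CPM in MxCre and 10.6, 9.12 and 12.5 CPM in DeltaMxCre. In the earlier model it read 7.61, 7.99, 7.29 and 7.11 CPM in TamCre and 13.6, 13.9, 15.6 and 16.9 CPM in DeltaTamCre. The groups did not overlap in either model and the log2 fold changes were 2.16 ± 1.00 and 1.00 ± 0.11, and the adjusted p at 8 weeks was 0.297 in edgeR's quasi-likelihood test and 0.0451 in limma-voom on the same libraries. With only MxCre and DeltaMxCre in the fit the edgeR adjusted p of Il31ra was 0.0161. Il31ra passed at 8 weeks in 2 of 20 alternatives and in 0 of the 12 that left out 1 library. The reason why these values differ was not tested.

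Myl4, the atrial light chain, read 2.69, 4.31 and 4.40 CPM in MxCre and 5.43, 3.40 and 4.13 CPM in DeltaMxCre, which overlap, with a log2 fold change of 0.18 ± 0.65. At 43 to 44 h it read 8.31, 8.69, 8.07 and 9.15 CPM in TamCre and 12.9, 14.5, 14.6 and 13.4 CPM in DeltaTamCre, which do not, with a log2 fold change of 0.70 ± 0.10.

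Pgam2, the muscle mutase, read 5.08, 9.30 and 4.97 CPM in MxCre and 5.67, 6.85 and 6.33 CPM in DeltaMxCre, all within the control range, with a log2 fold change of −0.04 ± 0.44. At 43 to 44 h it read 40.5, 38.7, 36.8 and 37.4 CPM in TamCre and 16.5, 19.3, 26.2 and 22.04 CPM in DeltaTamCre, a log2 fold change of −0.87 ± 0.13. For Myl4 and Pgam2 the edgeR adjusted p at 8 weeks was 0.933 and 0.984. The 8-week estimate differed from the earlier one by −0.51 ± 0.65 for Myl4 and by 0.83 ± 0.46 for Pgam2 on the log2 scale, under 2 standard errors in both.

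Deleted and control libraries did not overlap for 6 of the 8 genes at 8 weeks, as for 20.9% of all tested genes, and for all 8 at 43 to 44 h, as for 10.6%. Set against all genes, 5 of the 8 passed an adjusted p of 0.05 at 8 weeks, where 2.94% of 13557 tested genes did, and all 8 passed at 43 to 44 h, where 0.0892% of 13460 did. Since these contrasts picked the genes, nothing is read from those counts. At 43 to 44 h the threshold fell between Acsf2 (adjusted p 0.0437) and Ston2, Serpinb6b and Afap1 (each 0.0723), followed by Ydjc (0.0750). The other 4 genes inside it were Zmiz1, the tetraspanin Cd53 (log2 fold change 0.65 ± 0.10), the integrin beta chain Itgb3 (0.68 ± 0.10) and granzyme A, Gzma (−0.69 ± 0.11). In both deletions together, 0.039% of 12819 genes passed in the higher direction, namely Evl, Acsf2, Jakmip1, Ggt5 and Cd53, and 0.0156% in the lower, Qsox2 and Zmiz1.

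The 12 genes inside the 43 to 44 h threshold depended on single libraries. Without TamCre 1 the number was 2, without TamCre 2 it was 5, and without TamCre 3 or TamCre 4 it was 0, with 1710 and 1604 genes at an unadjusted p under 0.05 in edgeR. Without DeltaTamCre 1 it was 8, and without DeltaTamCre 2, 3 and 4 it was 5, 4 and 1. With every library, DESeq2 passed 533 genes and limma-voom 9. The estimates for the 8 genes kept their sign in every one of these fits, and that of Pgam2, which ranged most, lay between −0.998 and −0.775. At 8 weeks, Jakmip1 and Ggt5 lost the threshold without MxCre 2, MxCre 3 or any of the 3 DeltaMxCre libraries (adjusted p 0.0556 to 0.0954 for Jakmip1 and 0.0575 to 0.133 for Ggt5), and Ggt5 also without MxCre 1 (0.0501). The 8-week count of 399 genes was 138 without DeltaMxCre 2 and 173 without DeltaMxCre 3.

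**Figure D2:**
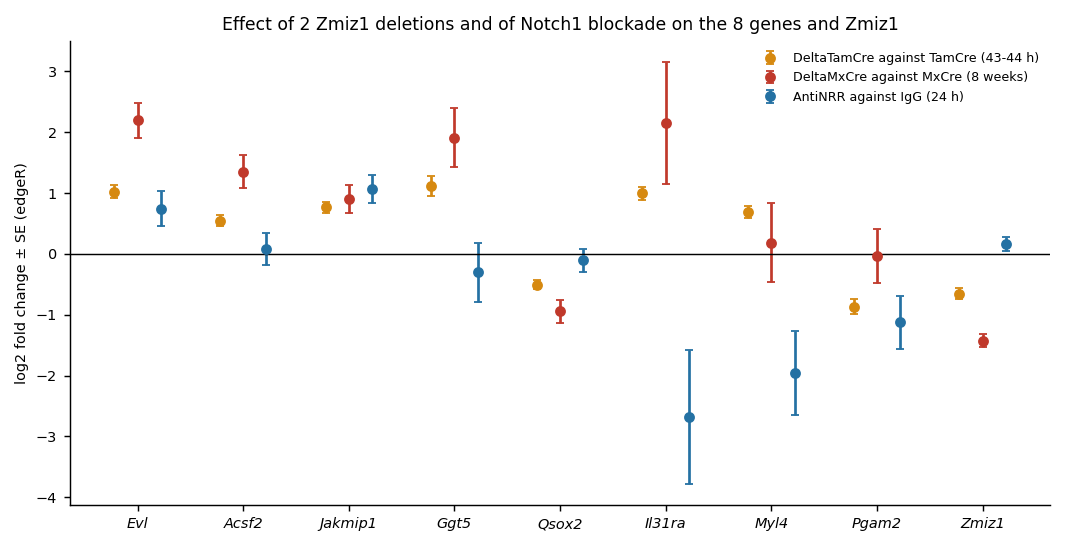
Estimated log2 fold change with its standard error from edgeR for the 8 genes and Zmiz1 in the 3 comparisons; orange, DeltaTamCre against TamCre (n = 4 per group); red, DeltaMxCre against MxCre (n = 3 per group); blue, AntiNRR against IgG (n = 3 per group). The red points lie farther from 0 than the orange ones for all but Myl4 and Pgam2, and Jakmip1 alone among the 8 passes the test after AntiNRR.

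Side by side, the difference was larger at 8 weeks than at 43 to 44 h for 6 of the 8 genes. Over all tested genes the median size of the log2 fold change was also larger at 8 weeks, at 0.28 beside 0.14. The median standard error was larger there too, at 0.28 beside 0.11, so nothing is read from the count of 6. The ratio of the log2 fold changes was 2.14 for Evl, 2.47 for Acsf2, 1.72 for Ggt5, 1.87 for Qsox2, 2.16 for Il31ra and 1.18 for Jakmip1. It was 0.263 for Myl4 and 0.0411 for Pgam2. The 8-week estimate exceeded the earlier one by 1.17 ± 0.31 for Evl and 0.80 ± 0.28 for Acsf2 on the log2 scale, and Qsox2 was lower by a further −0.44 ± 0.21. For Jakmip1 (0.14 ± 0.25), Ggt5 (0.80 ± 0.51) and Il31ra (1.16 ± 1.01) the gap between models was under 2 of its standard errors. Zmiz1 itself had a log2 fold change of −1.42 ± 0.11 at 8 weeks and −0.65 ± 0.10 at 43 to 44 h, a ratio of 2.19.

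The differences were also divided by the Zmiz1 lost in each model. Per log2 unit of Zmiz1 lost, Evl was higher by 1.54 ± 0.24 at 8 weeks and 1.58 ± 0.29 at 43 to 44 h. Il31ra gave 1.51 ± 0.71 and 1.53 ± 0.28, Acsf2 0.95 ± 0.20 and 0.84 ± 0.18, Ggt5 1.34 ± 0.36 and 1.70 ± 0.36, and Qsox2 −0.66 ± 0.15 and −0.78 ± 0.16. Jakmip1 gave 0.64 ± 0.17 at 8 weeks and 1.18 ± 0.22 at 43 to 44 h, Myl4 0.13 ± 0.45 and 1.07 ± 0.22, and Pgam2 −0.03 ± 0.31 and −1.33 ± 0.27. No standard error of the gap between models was computed for these values, so the genes are not sorted by it.

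Within DeltaTamCre, the order of libraries by residual Zmiz1 was followed by Ggt5 and by no other member. The share of all tested genes that follow this order was not computed, so nothing is read from that match. In DeltaTamCre, Ggt5 stood 0.75, 1.03, 1.17 and 1.40 log2 CPM above the control mean in the libraries with 75.2%, 62.9%, 58.9% and 57.7% of control Zmiz1. Jakmip1 stood at 0.72, 0.64, 0.74 and 0.96 in the same order of libraries. Its largest difference was in the library with least Zmiz1, but the value at 62.9% lay below that at 75.2%. Il31ra stood at 0.89, 0.86, 1.17 and 1.06, which does not follow that order.

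The remaining genes did not follow that order either. Evl stood at 1.00, 1.26, 0.84 and 0.98 from most to least Zmiz1, and Acsf2 at 0.55, 0.62, 0.45 and 0.58. Qsox2 stood at −0.50, −0.62, −0.39 and −0.51. Myl4 stood at 0.76, 0.59, 0.64 and 0.77, and Pgam2 at −0.99, −1.22, −0.80 and −0.55, its smallest difference in the library with least Zmiz1. Evl, Acsf2, Qsox2 and Pgam2 all had their largest difference in DeltaTamCre 1, the library with 62.9% of control Zmiz1 and the lowest depth.

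The DeltaMxCre libraries spanned only 35.1% to 40.0% of control Zmiz1. From most to least Zmiz1, Il31ra stood at 1.87, 2.08 and 2.32 log2 CPM above the control mean and Jakmip1 at 0.90, 0.95 and 0.96, both in that order. Evl stood at 1.95, 2.34 and 2.31, Ggt5 at 1.89, 1.78 and 2.04 and Acsf2 at 1.36, 1.43 and 1.27, which do not follow it. Qsox2 stood at −0.84, −1.36 and −0.71, Myl4 at −0.12, 0.53 and 0.15, and Pgam2 at 0.15, −0.12 and 0.04. The share of all tested genes that follow the order in DeltaMxCre was not computed either, so nothing is read from these matches. No correlation with Zmiz1 within a deleted group was computed, since each holds at most 4 libraries.

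**Figure D3:**
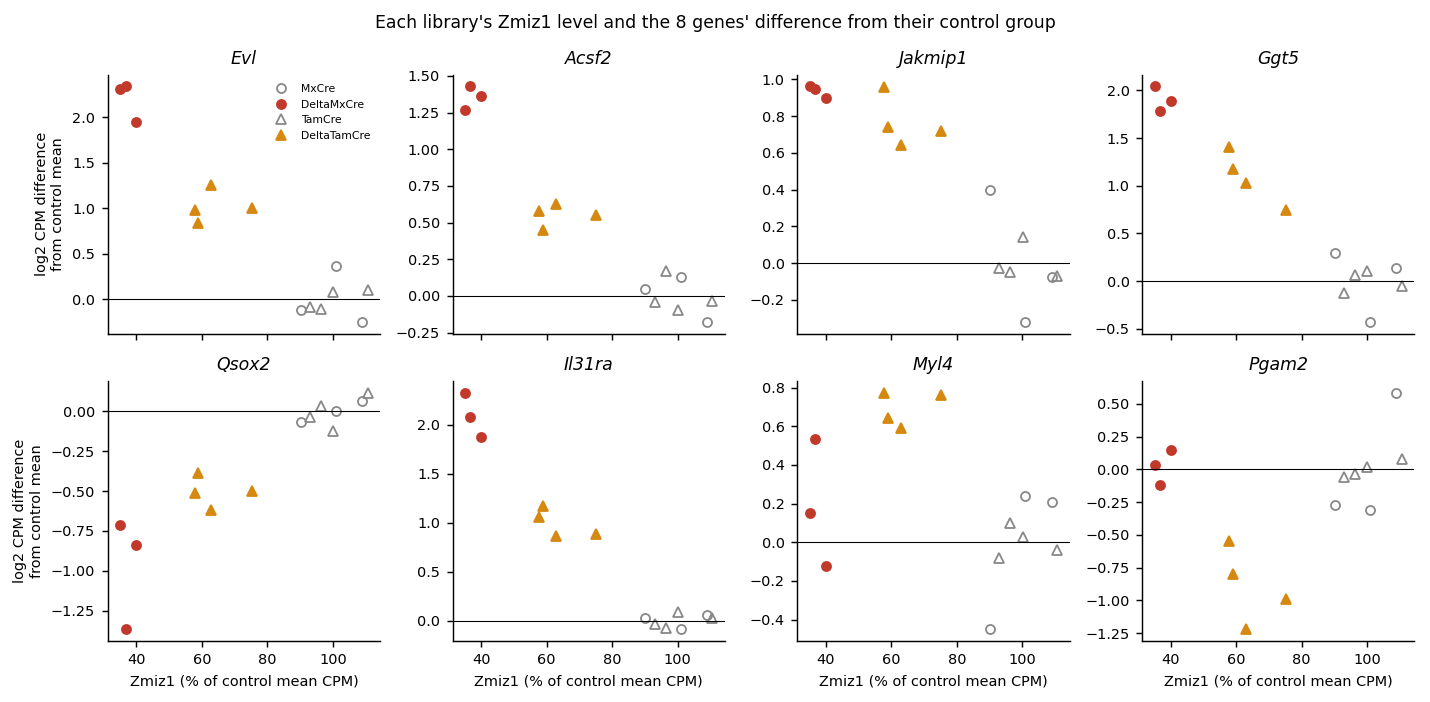
Each library's Zmiz1 level as a percentage of its control group's mean (x axis) against the difference of each gene from its own control mean on the log2 CPM scale (y axis); open symbols are controls, filled circles DeltaMxCre and filled triangles DeltaTamCre. Among the DeltaTamCre libraries Ggt5 runs from 0.75 at 75.2% to 1.40 at 57.7%, an order that no other member follows, and Myl4 and Pgam2 lie near 0 in DeltaMxCre. The share of all tested genes that follow the order of Zmiz1 was not computed.

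AntiNRR against IgG asked whether blocking Notch1 for 24 h moved the same genes. Jakmip1 was the member that passed, 1 of 8 where 4.06% of all 13557 tested genes did. It read 22.04, 13.8 and 21.99 CPM in IgG and 39.8, 45.0 and 37.1 CPM in AntiNRR, with no overlap. It rose by a log2 fold change of 1.08 ± 0.23 (edgeR adjusted p 0.00560), higher in 3 of 3 AntiNRR libraries than in any IgG library, and the direction was that of both deletions. Without IgG 2 the edgeR adjusted p was 0.0603, with a log2 fold change of 0.89; it ranged from 0.000439 to 0.0603 over all alternatives tried.

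Evl read 8.88, 4.86 and 7.18 CPM in IgG and 13.5, 7.86 and 13.6 CPM in AntiNRR, which overlap. Its log2 fold change was 0.74 ± 0.29 and its adjusted p 0.173 in edgeR. Acsf2, Ggt5 and Qsox2 had estimates within 1 standard error of 0, at 0.08 ± 0.26, −0.30 ± 0.49 and −0.11 ± 0.19, with edgeR adjusted p of 0.928, 0.846 and 0.868. The sign of Acsf2 turned without IgG 3 (−0.14) or AntiNRR 3 (−0.29), and that of Qsox2 without IgG 2 (0.0059); Ggt5 ranged from −0.86 without AntiNRR 2 to −0.06 without AntiNRR 1.

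Myl4, Il31ra and Pgam2 had estimates below 0 after the antibody that did not pass the test. Myl4 read 4.60, 2.84 and 2.17 CPM in IgG and 0.639, 0.761 and 1.06 CPM in AntiNRR. Its groups did not overlap, as was so for 21.6% of all tested genes and for Jakmip1 among the other members, and its log2 fold change was −1.96 ± 0.69 with an adjusted p of 0.119 in edgeR. With DESeq2 the adjusted p of Myl4 was 0.0244, and with edgeR over all 20 libraries it was 0.00154.

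Il31ra was the most scattered of the 8 here. It had 9, 88 and 50 counts in the 3 IgG libraries and 0, 0 and 19 counts in the AntiNRR libraries, which overlap, with a log2 fold change of −2.68 ± 1.10 (edgeR adjusted p 0.226). A count of 0 allows up to 0.16 CPM in AntiNRR 1 and 0.253 CPM in AntiNRR 2, taking 3 counts as the limit, for counting error only. Without AntiNRR 3, the 2 remaining antibody libraries were both at 0 and the edgeR adjusted p was 0.00114. Pgam2 read 16.5, 21.1 and 7.74 CPM in IgG and 3.09, 7.10 and 10.6 CPM in AntiNRR, which overlap, with a log2 fold change of −1.13 ± 0.44 and an adjusted p of 0.180 in edgeR, or 0.0460 with all 20 libraries in the fit.

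Zmiz1 did not pass after the antibody, at 310, 285 and 260 CPM in IgG and 324, 311 and 324 CPM in AntiNRR (log2 fold change 0.16 ± 0.11, edgeR adjusted p 0.515). The median size of the log2 fold change over the 8 genes was 0.91 after AntiNRR, beside 0.28 over all tested genes, and their median signed value was −0.20, beside −0.02. Standard errors were 1.10 for Il31ra, 0.69 for Myl4, 0.49 for Ggt5 and 0.44 for Pgam2, and 0.19 to 0.29 for the other members. The median standard error over all tested genes was 0.28. Noisier estimates tend to be larger in size, so nothing is read from the medians.

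Lists of relatives and partners, drawn up by textbook membership, show how the 8 genes stood among functionally related ones. Of the 91 listed genes tested at 43 to 44 h, 0 passed in edgeR or limma-voom, where edgeR passed 0.0892% of all tested genes. An unadjusted p under 0.05 in edgeR was reached by 21 of the 91. Over all 13460 tested genes, 2175 reached it in edgeR with DESeq2 size factors. DESeq2 passed 11 of the 91. Those 11 included Lpp, Pgam1, Ldha and 5 genes of the disulfide list, Chchd4, Ero1lb, Gfer, Pdia5 and Txndc5; DESeq2 passed 3.96% of all genes there. Among 12 genes of the Ena/VASP family and its partners, Lpp, a scaffold of focal adhesions, rose at 8 weeks from 189 ± 16.1 to 282 ± 46.1 CPM (SD, n = 3; edgeR adjusted p 0.00954). Fyb, an adaptor that recruits Ena/VASP proteins in T cells, rose after AntiNRR from 380 ± 45.3 to 567 ± 43.8 CPM (SD, n = 3; edgeR adjusted p 0.0104). Vasp, the founding member, ran from 65.5 to 72.2 CPM in MxCre and from 57.1 to 82.5 CPM in DeltaMxCre.

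Of 17 acyl-CoA synthetase genes tested with the SMARTer libraries, 1 fell at 8 weeks. It was Slc27a2, a fatty acid transporter with synthetase activity, from 3.41 ± 1.198 CPM to 0.199 ± 0.190 CPM (SD, n = 3; edgeR adjusted p 0.0167), in the direction opposite to Acsf2. Acss1, the mitochondrial acetyl-CoA synthetase, rose after AntiNRR from 66.2 ± 6.26 to 122 ± 12.96 CPM (SD, n = 3; edgeR adjusted p 0.000234). Of the Jakmip1 list, Jak1 rose after AntiNRR from 587 ± 34.0 to 825 ± 56.9 CPM (edgeR adjusted p 0.00561, n = 3), as Jakmip1 did. Jakmip2 had 0 counts in all 20 libraries.

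In the interleukin-31 receptor pathway, Osmr, the partner chain of Il31ra, had 0 counts in all 20 libraries. Il6st, the shared receptor chain whose gene lies 15071 bases from Il31ra, ran from 133 to 155 CPM in MxCre and from 139 to 150 CPM in DeltaMxCre, and did not pass in any comparison. Cish, a feedback inhibitor of cytokine receptors, rose at 8 weeks from 10.5 ± 2.62 to 37.8 ± 17.02 CPM (SD, n = 3; edgeR adjusted p 0.00108), the single call among 13 tested genes of that list. Stat3 rose after AntiNRR from 201 ± 16.4 to 273 ± 14.5 CPM (edgeR adjusted p 0.0272, n = 3), together with Jak1.

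The glutathione list of 12 tested genes, the disulfide list of 14 and the glycolysis list of 9 each held 0 calls at 8 weeks in edgeR and limma-voom and 3 genes at an unadjusted p under 0.05 in edgeR; DESeq2 called 1 of them, P4hb of the disulfide list. Over all 13557 tested genes at 8 weeks, edgeR called 2.94% and DESeq2 5.01%. Of these genes, 2222 had an unadjusted p under 0.05 in edgeR with DESeq2 size factors. The median log2 fold changes of these 3 lists at 8 weeks were −0.31, −0.30 and −0.16, beside −0.03 over all genes. Qsox1, the closest relative of Qsox2, ran from 24.9 to 34.2 CPM in MxCre and from 33.6 to 39.7 CPM in DeltaMxCre. Pgam1, the form of the mutase found in most tissues, ran from 225 to 307 CPM in TamCre and from 196 to 237 CPM in DeltaTamCre, and did not pass in edgeR; it matches 773 bases of the Pgam2 transcript at 75.4% identity. After AntiNRR, glutathione reductase Gsr fell from 149 ± 5.23 to 84.3 ± 4.53 CPM (SD, n = 3; edgeR adjusted p 0.00916), and Vkorc1l1, a quinone reductase of the disulfide list, fell from 17.6 ± 1.29 to 6.74 ± 1.76 CPM (edgeR adjusted p 0.0148). Of 8 myosin genes tested, Myh10, a non-muscle heavy chain, fell at 8 weeks from 34.8 ± 14.1 to 13.3 ± 3.34 CPM (SD, n = 3; edgeR adjusted p 0.0147).

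**Figure D4:**
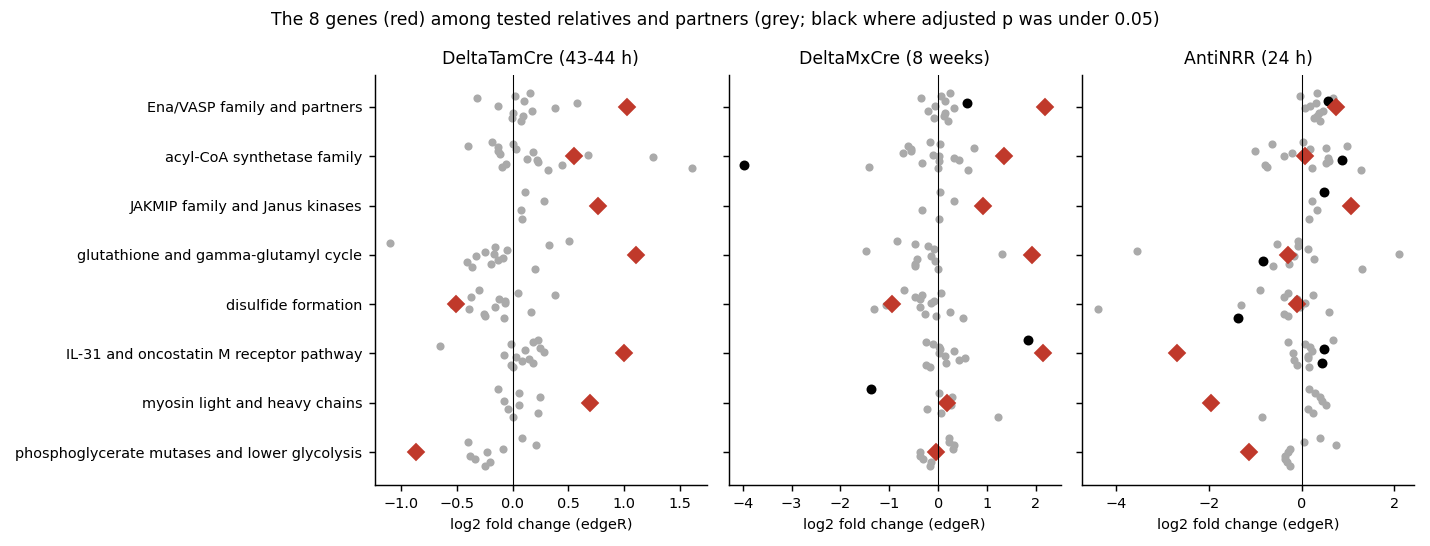
Estimated log2 fold change from edgeR of the tested genes in 8 lists of relatives and partners (grey points; black where the adjusted p was under 0.05) and of the member each list was drawn up for (red diamonds), in the 3 comparisons; the x axes differ in range. No listed relative is black at 43 to 44 h, where 0.0892% of all tested genes passed. The red diamonds in the deletion panels were chosen for their distance from 0, so their place beside the grey points is a description.

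Among neighbours on the chromosome, Itgb3 lies 20785 bases past the end of Myl4 on the same strand. It ran from 10.5 to 12.1 CPM in TamCre and from 15.7 to 19.9 CPM in DeltaTamCre, and from 20.5 to 25.2 CPM in MxCre and from 32.9 to 39.5 CPM in DeltaMxCre. Its log2 fold change was 0.68 in both deletions, with edgeR adjusted p of 0.0405 at 43 to 44 h and 0.129 at 8 weeks, and 0.81 after AntiNRR (0.0538), where the estimate for Myl4 was below 0. Degs2 overlaps the end of Evl on the other strand over 278 bases of exon; its log2 fold changes were 0.33, 0.43 and 0.42 at 8 weeks, at 43 to 44 h and after AntiNRR, and none passed. The remaining tested neighbours, Yy1, Chad, Rsad1, Lrrc59, Wfs1, Susd2, Il6st, Ddx4, Cdc27, 1700081L11Rik, Dbnl and Polm, did not pass in any comparison in which they were tested.

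The tested gene most like each member was found by Pearson's r over the 20 libraries, each taken as log2 CPM minus its own control mean. For Qsox2 that gene was Zmiz1 itself (r = 0.893), as the choice of a gene that differs when Zmiz1 is deleted favours; the r of Zmiz1 with Ggt5 was −0.932, with Acsf2 −0.846 and with Evl −0.841. The most alike gene was Map3k2 for Evl (r = 0.889), Vash1 for Acsf2 (0.888), Tmsb4x for Jakmip1 (0.935), Dgka for Ggt5 (0.913), Exoc1 for Il31ra (0.947), Capn5 for Myl4 (0.902) and Bid for Pgam2 (0.801). These r values are a description over libraries that share kits and groups. Map3k2 (log2 fold change 0.75 ± 0.12, edgeR adjusted p 0.000537) and Dgka (0.61 ± 0.13, 0.00700) rose at 8 weeks. After AntiNRR, Tmsb4x rose (0.52 ± 0.12, edgeR adjusted p 0.0113) with Jakmip1, and Capn5 fell (−1.002 ± 0.135, edgeR adjusted p 7.95e-05).

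Per unit of transcript length, the authors' deposited table places Pgam2 highest of the 7 members read from it in TamCre, at 45.1 FPKM (a level scaled to transcript length and library size). Qsox2 followed at 26.4, Myl4 at 11.1, Jakmip1 at 10.5, Acsf2 at 5.73, Evl at 5.63 and Il31ra at 2.11 FPKM. In MxCre the same table gives Qsox2 18.2, Jakmip1 8.65, Pgam2 7.87, Evl 5.09, Myl4 4.96 and Acsf2 4.49 FPKM. These are the authors' means with no spread. At a q-value under 0.1, the authors' deposited table called 6 of the 8 genes in both deletions, Il31ra among them, and not Myl4 (q 0.942 at 8 weeks) or Pgam2 (q 0.939). Of its 23284 genes, it called 210 higher in both deletions, 199 lower in both and 10 in opposite directions. These contrasts picked the 8 genes, so nothing is read from the count of 6. After AntiNRR the authors' deposited table called Jakmip1 (2.23-fold, q 0.00143) and Pgam2 (0.519-fold, q 0.0610). The share of all its genes called after AntiNRR was not computed, so nothing is read from how many members it called there.

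Markers of other cells moved with some of these results. The summed level of 10 genes of double-positive and mature alpha-beta T cells ran from 462 to 724 CPM in MxCre and from 805 to 1037 CPM in DeltaMxCre, and from 805.4 to 814 CPM in TamCre and 933 to 1134 CPM in DeltaTamCre. The 10 genes of natural killer and innate cells ran from 196 to 221 CPM in TamCre and from 114 to 162 CPM in DeltaTamCre, which is nearly all Gzma (193 to 218 and 111 to 160 CPM), the single call of that list; Klrd1 was at 0 in every library of both groups. After AntiNRR, the DN1 and DN2 progenitor list ran from 320 to 381 CPM against 156 to 184 CPM in IgG, with its calls, Kit and Cpa3, higher. Bcl11a of that list went the other way, from 15.2 to 33.2 CPM in AntiNRR against 33.4 to 40.6 CPM in IgG, and was not called. The 11 DN3 genes ran from 11689 to 12676 CPM against 17665 to 17866 CPM in IgG, with its calls, Il2ra, Ptcra, Notch1, Notch3 and Dtx1, lower. Bcl11b and Tcf7 of the DN3 list ran higher without overlap and were not called. Bcl11b ran from 1877 to 2031 CPM in AntiNRR against 1595 to 1704 CPM in IgG, and Tcf7 from 1245 to 1311 against 1068 to 1209 CPM. The part of these shifts in the results for the 8 genes was not tested. Of the 12 skeletal and cardiac muscle markers, Myh1, Myh4, Myh7 and Des had 0 counts in every group's libraries and the sum stayed at or below 25.3 CPM, beside Myl4 and Pgam2.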

How the data were processed

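RNA-seq of DN3 thymocytes was processed with mm10, TopHat2 2.0.9, Cuffdiff 2.1.1 and Bowtie2 2.1.0.0, per the submitters' processing notes; none of the sources used here gives the annotation or the strand setting. The authors deposited expected counts per gene and library (98.4% of values whole), which were rounded, and a table of group FPKM, fold ratios, p-values and q-values. The lowest FPKM in that deposited table is 1.

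Counts were tested with edgeR 4.0.16 (TMM scaling after filterByExpr, quasi-likelihood F test with robust shrinkage, adjustment by Benjamini-Hochberg over all tested genes) in 1 fit of 12 SMARTer and 1 of 8 TruSeq libraries, with group as the only term. SE is the log2 fold change divided by the square root of F. CPM used TMM-scaled totals, and log2 CPM a prior count of 2. No 2 of the 190 library pairs matched within sampling noise. The test was checked on simulated counts. Transcript matches came from BLAST 2.17.0 on GENCODE M21.

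Members and lists were chosen with earlier results of these data known. Named besides the members were Zmiz1, the gene most like each member, neighbours, up to 4 called genes per list, and genes around the 43 to 44 h threshold. Alternatives were DESeq2 1.42.0, limma-voom 3.58.1, other scaling and filters, other libraries in the fit, a replicate block and leaving out each library.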

Additional observations from a re-analysis of the deposited data

How the results depend on the processing

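The number of genes past an adjusted p of 0.05 was 399 at 8 weeks, 12 at 43 to 44 h and 551 after AntiNRR. With DESeq2 it was 679, 533 and 830. With all 20 libraries in 1 fit it was 853, 2 and 1080, and with only MxCre and DeltaMxCre it was 183 at 8 weeks. Leaving out 1 library at a time gave 138 to 434, 0 to 8 and 257 to 817; the 551 became 361, 257 and 295 without IgG 1, 2 and 3, and 342 and 359 without AntiNRR 1 and 2. For none of these shifts was the cause tested. DESeq2 size factors, limma-voom and both filters kept each count within 1.5 times.

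Of the tested member results after AntiNRR, Acsf2 ranged from −0.29 to 0.30 when 1 library was left out, below 0 without IgG 3 (−0.14) and without AntiNRR 3 (−0.29). Qsox2 ranged from −0.20 to 0.0059, above 0 without IgG 2. Jakmip1 passed in 19 of 20 alternatives, Myl4 in 2, and Il31ra and Pgam2 in 1 each; Evl, Acsf2, Ggt5 and Qsox2 passed in none. At 8 weeks Evl, Acsf2 and Qsox2 passed in 20 of 20, Jakmip1 in 15, Ggt5 in 14, Il31ra in 2 and Myl4 and Pgam2 in 0. At 43 to 44 h, of 15, Evl passed in 11, Il31ra in 10, Jakmip1 in 9, Pgam2 in 7, Ggt5 and Myl4 in 5, and Acsf2 and Qsox2 in 4. The gene most like each member was unchanged with a prior count of 0.5.

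The replicate numbers do not pair the libraries: deviations of same-numbered libraries correlated from −0.604 to 0.0717, and not every library correlated best with its own number. With the replicate block, 496 genes passed at 8 weeks, 634 after AntiNRR, and 0 at 43 to 44 h in edgeR, where 1162 had an unadjusted p under 0.05. The median SE over tested genes was 0.28 in the SMARTer libraries and 0.11 in the TruSeq libraries; depth, kit and group size differ together and cannot be told apart.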

Other observations

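The authors' deposited FPKM of Ggt5 and Il31ra lie close to the floor of 1 in that table, and their folds there were smaller than those from the counts. For Ggt5 at 8 weeks the authors' deposited table gives 3.87 and 1.75 FPKM, a ratio of 2.21, beside 3.76 from the counts. After 1 is subtracted from both FPKM values, the ratio is 3.84. For Il31ra at 8 weeks the authors' deposited table gives 3.87 and 1.64 FPKM, a ratio of 2.35, beside 4.45 from the counts and 4.46 after the same subtraction. For Ggt5 at 43 to 44 h the 3 values were 1.46, 2.16 and 2.14, and for Il31ra after AntiNRR 0.611, 0.156 and 0.160. For Il31ra at 43 to 44 h, with both FPKM values above 2, they were 1.89, 2.00 and 2.69, so that subtraction moved the ratio away from the counts. For Evl at 8 weeks, whose FPKM of 22.2 and 5.09 lie above the floor, the ratio was 4.37 in the authors' deposited table and 4.58 from the counts, and subtraction gave 5.19. None of the sources used here says how the floor was applied.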
